A study of Mus musculus with 39 samples.

Results

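The 7 genes Gpnmb, Mamdc2, Chst3, Fbn2, Ctnna3, Trpc4 and Yipf7 had transcripts near zero in microglia of WT mice and far higher levels in microglia of 5XFAD mice. They were picked by symbol for that difference between the genotypes, with no numeric limit, so the difference itself is given as a description and carries no test. They are 7 of the 46333 genes of the female table and 7 of the 54532 genes of the male table, and each is found in both tables. The measurements that did not enter the choice are the response to chronic intermittent hypoxia (CIH) within each genotype and the spread of the genes among 5XFAD libraries.

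Bulk RNA sequencing had been done on CD11b+ cells taken with magnetic beads from the cerebrum of 39 mice, 1 library each. 5XFAD is a transgenic line in which neurons make mutant human proteins that drive amyloid plaque deposition, and the study bred 5XFAD males on the B6SJL background to C57BL/6J females. CIH is used as a model of sleep apnea. According to the labels, mice were exposed from 4 months of age to swings between 21% and 6.5% oxygen in 90 s intervals for 8 h a day, or to normoxia (NX), and the methods of the study state a different low oxygen level and longer daily hours. The female groups, 10 months old, were WT under NX (n = 4) or CIH (n = 5) and 5XFAD under NX (n = 5) or CIH (n = 5). The male groups, 8 months old, were the same and held 5 libraries each. Sex, age, length of exposure and count table therefore change together and cannot be told apart. Selection on CD11b also keeps other myeloid cells, and in bulk RNA fewer cells of a kind and less RNA per cell cannot be told apart.

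Microglia that gather at amyloid plaques lose transcripts of their resting state, such as P2ry12 and Tmem119, and gain a program named disease-associated microglia (DAM), which is marked by Cst7, Itgax and genes of lysosomes and lipid handling. Gpnmb belongs to the same setting, being a glycoprotein of lysosomes and the cell surface in phagocytic and lipid-laden macrophages. The other members work outside the core of that program. Mamdc2 encodes a secreted proteoglycan of the extracellular matrix, Chst3 the Golgi enzyme that puts sulfate on carbon 6 of chondroitin, and Fbn2 fibrillin-2, a rod-like protein of matrix microfibrils used mostly in development. Ctnna3 encodes alpha-T-catenin, which ties cadherin junctions to actin, Trpc4 a calcium-permeable cation channel of the plasma membrane, and Yipf7 a membrane protein of the early secretory pathway.

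The genes are not neighbours in the mouse genome (GRCm38, positions of the male table), although Chst3 and Ctnna3 share a chromosome. Gpnmb spans chr6:49036546-49070929 on the plus strand, Mamdc2 chr19:23302609-23448322 on the minus strand, and Chst3 chr10:60181532-60219260 on the minus strand. Trpc4 spans chr3:54156035-54318471 on the plus strand and Yipf7 chr5:69516671-69542648 on the minus strand. Ctnna3, at chr10:63430098-65003667 on the plus strand, is the longest with 1574 kb. RefSeq start regions were at hand for 4 members, in 6 windows, and the 250 bases before the start are shown for 1 window of each. Common control of these genes was not tested.
Gpnmb, chr6:49036268-49036517, plus strand: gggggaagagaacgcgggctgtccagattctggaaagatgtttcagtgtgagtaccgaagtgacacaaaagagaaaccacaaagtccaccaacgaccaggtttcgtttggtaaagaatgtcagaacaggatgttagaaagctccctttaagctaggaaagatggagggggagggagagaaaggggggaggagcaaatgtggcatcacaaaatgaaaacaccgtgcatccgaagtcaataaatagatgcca
Ctnna3, chr10:63429848-63430097, plus strand: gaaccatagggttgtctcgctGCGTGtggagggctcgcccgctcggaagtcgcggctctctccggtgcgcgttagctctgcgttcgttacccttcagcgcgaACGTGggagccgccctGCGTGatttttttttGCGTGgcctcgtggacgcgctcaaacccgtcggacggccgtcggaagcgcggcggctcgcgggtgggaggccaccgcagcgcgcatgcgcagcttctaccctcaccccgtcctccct
Trpc4, chr3:54155807-54156056, plus strand: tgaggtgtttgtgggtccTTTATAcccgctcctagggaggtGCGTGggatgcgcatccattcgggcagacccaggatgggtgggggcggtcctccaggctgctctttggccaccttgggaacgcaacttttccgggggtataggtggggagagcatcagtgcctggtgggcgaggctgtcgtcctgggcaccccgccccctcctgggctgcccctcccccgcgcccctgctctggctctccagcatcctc
Chst3, chr10:60219261-60219510, minus strand: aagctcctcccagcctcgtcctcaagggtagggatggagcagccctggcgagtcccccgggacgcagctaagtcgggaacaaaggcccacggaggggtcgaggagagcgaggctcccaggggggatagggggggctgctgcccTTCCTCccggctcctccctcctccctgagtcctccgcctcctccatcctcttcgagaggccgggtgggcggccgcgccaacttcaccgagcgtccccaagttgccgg
The sequences are from RefSeq on GRCm38.p6, written 5′ to 3′ on the strand of the gene, with motif matches in capitals. The 8 motifs searched on both strands are the following. CACGTG and CACATG are E-box forms, TGANTCA is the AP-1 element, GAGGAA the core of PU.1 sites, ACGTG and GCGTG the cores of hypoxia and xenobiotic response elements, TATAAA the TATA box, and the last is a form of the NF-kB site. CACGTG contains ACGTG, so both would match there.

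No motif was in all 4 windows, and GCGTG was in those of Ctnna3 and Trpc4. The Gpnmb window held none of the 8. The first Ctnna3 window held 1 ACGTG and 3 GCGTG, the Trpc4 window 1 GCGTG and 1 TATAAA on the other strand, and the Chst3 window 1 GAGGAA on the other strand, which reads TTCCTC here. Of 32851 RefSeq windows of the same length, 16.6% held ACGTG, 28.2% GCGTG, 12.4% TATAAA and 23.3% GAGGAA. The E-box CACGTG was in 6.02%, CACATG in 12.3%, TGANTCA in 6.75% and the NF-kB form in 0.356%, and these 4 were in no window of the members. The end of the Trpc4 window runs 22 bases past the start that the male table gives for the gene.

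Library totals ran from 14731683 to 25906121 counts in females and from 13457293 to 23095627 in males, and no library was a copy of another. Levels are given as CPM, the count per 1000000 counts of the library, and 3 counts, the limit that a count of 0 allows, correspond to 0.116 to 0.204 CPM in females and to 0.13 to 0.223 CPM in males. The label microglia was checked by markers, and all 14 homeostatic genes were detected in every library with a summed level of 26800 to 51700 CPM. The 30 DAM genes summed to 17280 to 27180 CPM in female WT and 15990 to 25950 CPM in male WT, against 17770 to 72820 CPM and 51440 to 87670 CPM in 5XFAD. Neuron markers summed to 4.42 to 25.5 CPM over all libraries, with Gad1, Gad2 or Tubb3 at 0 in some. Summed over 8 genes, astrocyte markers were at 140.4 to 275.8 CPM in WT and 163.6 to 919.9 CPM in 5XFAD. Of these genes, Gfap had means of 0.758 and 0.629 CPM in female and male WT and of 170.5 and 302 CPM in 5XFAD. The other lists summed to 155.9 to 545.4 CPM (oligodendrocytes), 66.5 to 278.3 CPM (endothelium), 5.42 to 113.3 CPM (mural cells and fibroblasts), 16.8 to 1165 CPM (neutrophils and monocytes) and 7.89 to 43.3 CPM (lymphocytes). Of all genes tested, 4.4% were called by edgeR as higher and 1.59% lower in 5XFAD in female NX (8.48% and 6.36% without WT NX 1 and 5XFAD NX 4, described next), 8.83% and 4.12% in female CIH, 5.94% and 2.31% in male NX, and 11.8% and 6.88% in male CIH. Of 8 astrocyte genes, 1 was higher in female NX, 4 in female CIH, 3 in male NX and 1 in male CIH, and 2 were lower in male CIH. Without WT NX 1 and 5XFAD NX 4, 1 was higher and 1 lower in female NX. Of the oligodendrocyte genes, 0 of 6 tested were higher in female NX with or without these libraries, 1 of 7 in female CIH, 3 of 8 in male NX and 2 of 8 in male CIH, and none was lower. Of the lymphocyte genes, 4 of 6 tested were higher in male CIH and 1 of 3 was lower in male NX, and in female NX the 1 tested was lower only without WT NX 1 and 5XFAD NX 4. The endothelial list had 1 higher and 1 lower in each of the 4 comparisons, and the neuron, mural and neutrophil lists had at most 1 higher and 2 lower in any, also without these libraries. Markers of border macrophages also moved with genotype, and all 8 were detected in every library. Their sum was 1350 to 1920 CPM in female WT and 1335 to 2028 CPM in male WT, against 434.1 to 827.1 CPM in female 5XFAD, where the library labelled 5XFAD NX 4 was at 1363 CPM, and 345.6 to 819.1 CPM in male 5XFAD. Of the 8, edgeR called 7 lower in female NX (6 without WT NX 1 and 5XFAD NX 4), 6 in female CIH, 6 in male NX and 2 in male CIH. The part of these lists in the member values was not tested.

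A pair of female libraries stood apart from the rest of their groups for some of these genes. WT NX 1 held 799 CPM of Gpnmb, or 20693 counts, where the other 8 female WT libraries held 0.964 to 2.14 CPM. The library labelled 5XFAD NX 4 held 1.36 CPM of Gpnmb and 0.815 CPM of Mamdc2, and its homeostatic markers P2ry12 (3107 CPM) and Tmem119 (2246 CPM) were above all other female 5XFAD libraries (1293 to 1963 CPM and 809.2 to 1438 CPM). The DAM marker Cst7 was at 18.9 CPM there, against 1112 to 2172 CPM in the other female 5XFAD libraries. For this reason counts and ratios of female NX are given with and without these 2 libraries. They were set aside partly on values of Gpnmb and Mamdc2 themselves. Member values without them are therefore a description and not a better estimate.

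Gpnmb went from a trace in WT to a high level in 5XFAD in all but 2 libraries. In female WT NX it stood at 799, 1.10, 1.58 and 1.05 CPM in replicates 1 to 4, and in WT CIH at 0.964, 2.14, 1.31, 0.966 and 1.38 CPM. In female 5XFAD NX it stood at 1346, 802, 383, 1.36 and 1663 CPM, and in 5XFAD CIH at 921, 393, 1166, 966 and 762 CPM. Aside from WT NX 1 and the library labelled 5XFAD NX 4, all female 5XFAD libraries lay above all female WT libraries. In male WT NX the values were 2.43, 1.09, 0.346, 1.67 and 2.19 CPM, and in WT CIH 1.04, 0.599, 0.0719, 1.54 and 2.48 CPM. Male 5XFAD NX held 485, 402, 597, 462 and 466 CPM, and 5XFAD CIH 677, 570, 417, 296 and 886 CPM. No male libraries of the 2 genotypes overlapped. The mean of 5XFAD over WT was 312-fold in male NX, 497-fold in male CIH and 622-fold in female CIH. In female NX it was 4.18-fold with all libraries, from 201 ± 399 CPM (SD, n = 4) to 839 ± 679 CPM (SD, n = 5), and 844-fold without the 2 libraries.

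Mamdc2, like Gpnmb, was at a trace in WT and at a high level in 5XFAD in all but 2 libraries. Female WT NX held 16.3, 0.122, 0.816 and 0.175 CPM, and WT CIH 0.0602, 0.13, 0.458, 0.376 and 0.607 CPM. Female 5XFAD NX held 290.3, 308, 152, 0.815 and 305 CPM, and 5XFAD CIH 254, 229, 196, 241 and 284 CPM. WT NX 1 was again the highest WT library, although its 16.3 CPM stayed under the 9 female 5XFAD libraries other than 5XFAD NX 4. Male WT NX held 0, 1.93, 0, 0.905 and 0.853 CPM, and WT CIH 0.0692, 0.272, 0.144, 0.369 and 0.621 CPM. Under NX, male 5XFAD held 135, 150, 168, 157 and 196 CPM, and 5XFAD CIH 187, 213, 158, 139 and 164 CPM, again with no overlap. These values give ratios of 219-fold in male NX, 583-fold in male CIH and 739-fold in female CIH, and of 48.5-fold in female NX, or 712-fold without the 2 libraries. Without male WT NX 2 the male NX ratio was 367-fold.

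Chst3 was detected in 18 of 19 WT libraries at low level. Female WT NX held 0.888, 0.366, 0.326 and 0.467 CPM, and WT CIH 0.602, 1.23, 2.03, 0.59 and 0.827 CPM. Female 5XFAD NX held 16.0, 18.4, 10.8, 6.52 and 19.2 CPM, and 5XFAD CIH 17.3, 15.2, 13.5, 19.8 and 16.5 CPM. The groups did not overlap, and the library labelled 5XFAD NX 4, at 6.52 CPM, was lowest of the 5XFAD libraries but above all WT libraries. Male WT NX held 0.111, 0, 0.433, 1.11 and 0.183 CPM, and WT CIH 0.0692, 0.871, 0.288, 0.185 and 2.14 CPM. The male 5XFAD NX libraries held 7.51, 12.1, 5.48, 15.9 and 11.5 CPM, and 5XFAD CIH 9.84, 12.8, 9.92, 8.59 and 8.24 CPM. The male genotypes did not overlap either. The ratio was 27.7-fold in female NX (41.6-fold without the 2 libraries), 15.6-fold in female CIH, 28.5-fold in male NX and 13.9-fold in male CIH. It was 57.8-fold in male NX without WT NX 4 and 28-fold in male CIH without WT CIH 5.

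Fbn2 (chr18:58008623-58209926, minus strand) was at 1.31 CPM or less in every WT library. Female WT NX held 0.309, 0.183, 0.272 and 0.234 CPM, and WT CIH 0.0602, 0.454, 1.31, 0.161 and 0.331 CPM. Female 5XFAD NX held 6.04, 4.95, 4.55, 4.01 and 3.77 CPM, and 5XFAD CIH 4.12, 7.13, 4.61, 5.24 and 4.96 CPM. Here the library labelled 5XFAD NX 4 sat inside the range of its group, and the genotypes did not overlap. Male WT NX held 0.774, 0.449, 0, 0.418 and 0 CPM, and WT CIH 0, 0.435, 0, 0 and 1.10 CPM. Male 5XFAD NX held 1.39, 1.26, 1.17, 4.7 and 3.34 CPM, and 5XFAD CIH 4.39, 6.69, 2.04, 2.11 and 1.81 CPM. The male genotypes came close, since the highest WT library was at 1.10 CPM and the lowest 5XFAD library at 1.17 CPM. The ratio was 18.7-fold in female NX (21.0-fold without the 2 libraries), 11.3-fold in female CIH, 7.23-fold in male NX and 11.1-fold in male CIH. It was 20.7-fold in female CIH without WT CIH 3, 10.9-fold in male NX without WT NX 1 and 31.3-fold in male CIH without WT CIH 5.

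Ctnna3 was at 0 in 7 of 19 WT libraries. Female WT NX held 0.116, 0, 0 and 0 CPM, and WT CIH 0, 0.26, 0.262, 0.107 and 0.276 CPM. Female 5XFAD NX held 9.92, 8.38, 6.22, 1.15 and 7.54 CPM, and 5XFAD CIH 7.58, 6.58, 6.06, 10.4 and 8.56 CPM. The library labelled 5XFAD NX 4 lay between the genotypes, which did not overlap. Male WT NX held 0.774, 0.642, 0, 0.766 and 0.609 CPM, and WT CIH 0, 0.109, 0, 0.0615 and 1.59 CPM. Male 5XFAD NX held 6.07, 3.57, 3.98, 6.61 and 7.43 CPM, and 5XFAD CIH 8.23, 8.72, 7.41, 4.79 and 6.83 CPM, with no overlap. The ratio was 43.3-fold in female CIH, 9.91-fold in male NX and 20.5-fold in male CIH. In female NX, where WT held 3 counts or fewer in all, it was 229-fold with a 95% counting interval of 61.5 to 879, and at least 46.1-fold (against 3 counts per library) without the 2 libraries.

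The male WT CIH value of Ctnna3 rested on WT CIH 5, and genes that overlap Ctnna3 were counted in the same library. On the other strand within Ctnna3 lie Lrrtm3, Gm10118 and Gm23854, and whether counting used strand is not stated in the sources used here. Lrrtm3, a synaptic adhesion gene of neurons, was at 1.035 CPM in WT CIH 5 and at most 0.122 CPM in the other 9 male WT libraries. Gm10118 was at 0.414 CPM in WT CIH 5 and at 0 in the other male WT libraries, and Gm23854 was at 0 throughout. In male 5XFAD, Lrrtm3 reached 0.477 CPM and Gm10118 0.676 CPM, both under the lowest male 5XFAD value of Ctnna3. WT CIH 5 was also the highest male WT library for Gpnmb, Yipf7, Chst3 and Fbn2, and for the summed neuron markers at 20.8 CPM, where male WT libraries ran from 13.02 to 20.8 CPM and male 5XFAD libraries from 6.35 to 24.3 CPM. The part of these markers in the member values was not tested. Without WT CIH 5 the log2 ratio of Ctnna3 in male CIH moved from 4.36 to 7.40, a ratio of 169 with an exact 95% counting interval of 49.9 to 713 since WT then held 3 counts in all, that of Trpc4 from 4.26 to 5.86, that of Chst3 from 3.80 to 4.80 and that of Fbn2 from 3.47 to 4.97.

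Trpc4 was detected at a trace in all WT libraries except 1. Female WT NX held 0.309, 0.122, 0.109 and 0.0584 CPM, and WT CIH 0.0602, 0.195, 0.393, 0.215 and 0.386 CPM. Female 5XFAD NX held 11.4, 7.27, 2.76, 1.36 and 10.3 CPM, and 5XFAD CIH 9.19, 4.99, 10.4, 7.51 and 5.37 CPM. The library labelled 5XFAD NX 4 was lowest of the 5XFAD libraries but above all WT libraries. Male WT NX held 0.332, 0.449, 0.26, 1.11 and 0.122 CPM, and WT CIH 0.0692, 0.0544, 0, 0.246 and 1.035 CPM. For male 5XFAD NX the values were 2.08, 3.57, 3.39, 5.04 and 6.47 CPM, and 5XFAD CIH 3.56, 10.2, 4.01, 4.32 and 4.82 CPM, and no male libraries of the genotypes overlapped. The ratio was 44.2-fold in female NX (82.2-fold without the 2 libraries), 30.0-fold in female CIH, 9.02-fold in male NX and 19.2-fold in male CIH. It was 14.1-fold in male NX without WT NX 4 and 58.2-fold in male CIH without WT CIH 5.

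Yipf7 was the member nearest to silence in WT. It was at 0 in 16 of 19 WT libraries, and the others were female WT NX 2 at 0.061 CPM, female WT CIH 1 at 0.0602 CPM and male WT CIH 5 at 0.069 CPM, 1 count each. Female 5XFAD NX held 3.97, 3.72, 1.603, 0 and 5.79 CPM, and 5XFAD CIH 5.49, 2.44, 4.72, 6.34 and 5.31 CPM. The library labelled 5XFAD NX 4 was the only 5XFAD library at 0. Male 5XFAD NX held 4.47, 4.06, 3.98, 4.16 and 3.20 CPM, and 5XFAD CIH 2.86, 1.55, 2.86, 2.68 and 4.57 CPM, all above the male WT libraries. With so few WT counts the ratio is known only within a wide interval, 198-fold (44.4 to 9890) in female NX, 404-fold (71.2 to 15800) in female CIH and 210.4-fold (41.2 to 9170) in male CIH. Without the 2 libraries that stand apart it was 185.5-fold (35.7 to 7940) in female NX. Leaving out the WT library that held the 1 count left bounds of 19.9-fold in female NX, 27.1-fold in female CIH and 15.1-fold in male CIH. In male NX, where WT was at 0, the ratio was at least 22.6-fold. All these bounds are against 3 counts per library. These intervals cover counting error only.

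**Figure D1:**
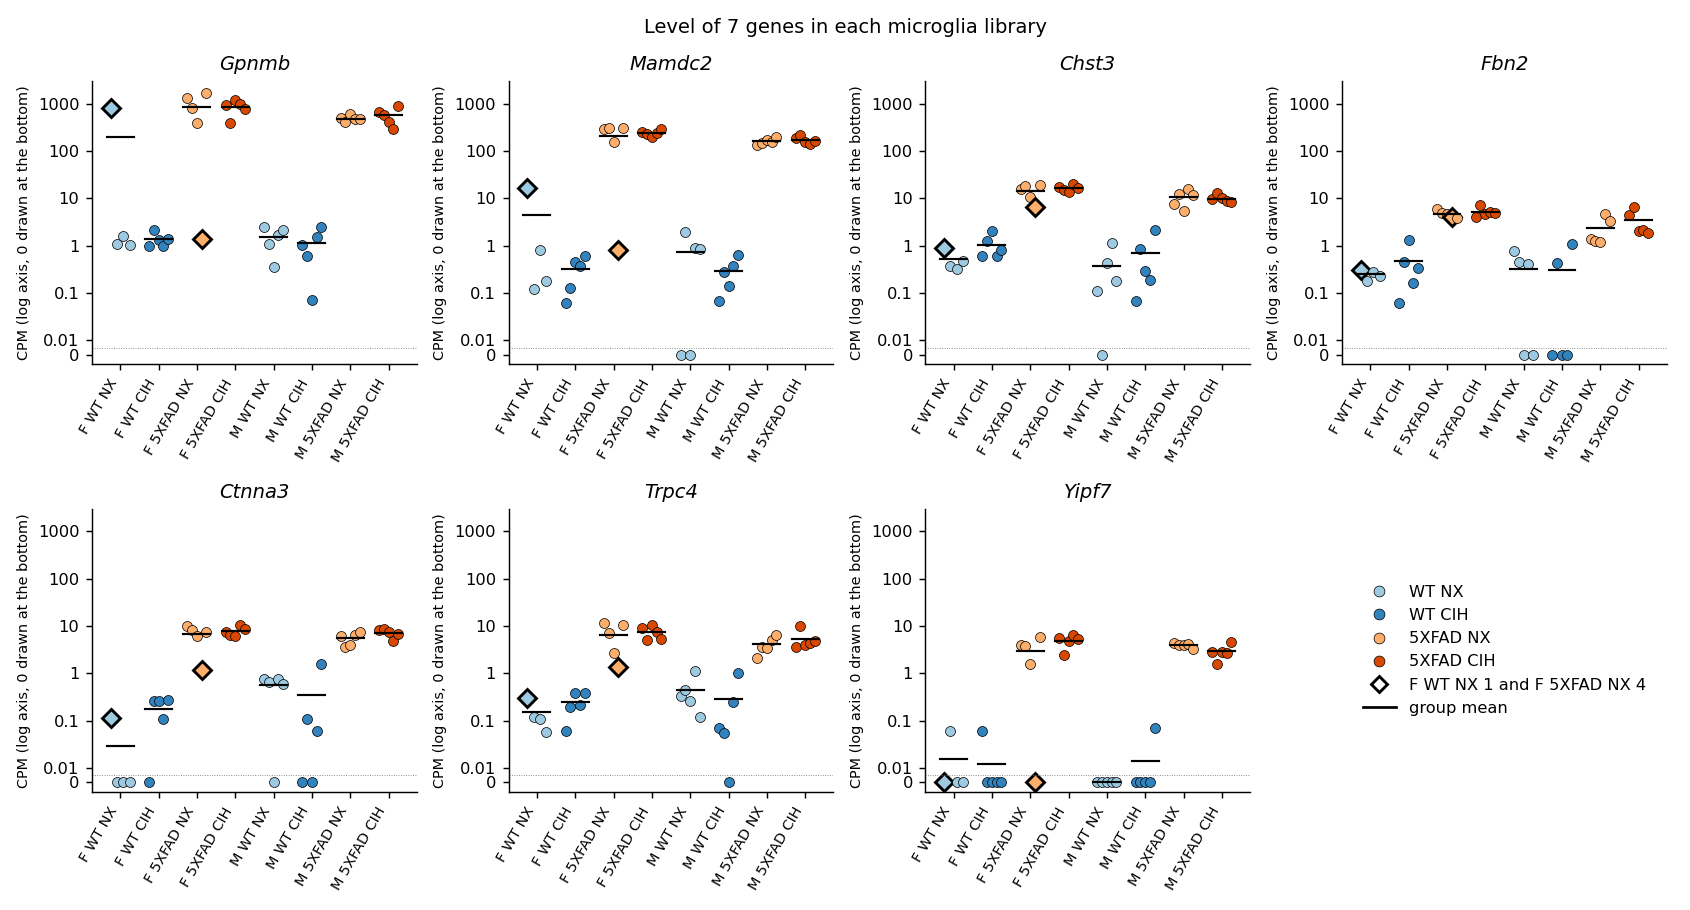
Level of each gene in each library in CPM on a log axis, with 0 drawn at the bottom, by sex (F, M), genotype and treatment. Points are libraries, black lines are group means, and diamonds mark F WT NX 1 and the library labelled F 5XFAD NX 4, which lie at 799 and 1.36 CPM of Gpnmb.

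Counted over the members, the genotypes did not overlap for 4 of 7 genes in female NX and for 7 of 7 without the 2 libraries, and for 7 of 7 in each of female CIH, male NX and male CIH. The share of all genes without overlap is not given here, so these counts have no background on the same measure. The shares of calls that follow are another measure. Among all genes tested, 5.99% were called between the genotypes in female NX (14.8% without the 2 libraries), 13% in female CIH, 8.25% in male NX and 18.7% in male CIH, where called means an FDR under 0.05 and an absolute log2 fold change above 1 in edgeR. The members were chosen by these contrasts, so nothing is read from the counts.

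The 2 female libraries did not sit at the same place for every member. On a log2(CPM + 0.1) scale with the median of the other female WT libraries at 0 and that of the other female 5XFAD libraries at 1, WT NX 1 was at 0.98 for Gpnmb and 0.58 for Mamdc2, and between 0 and 0.14 for the other 5 genes. Gpnmb and Mamdc2 were thus high in this library without the rest of the set. The library labelled 5XFAD NX 4 was at 0 for Yipf7, 0.02 for Gpnmb and 0.14 for Mamdc2, but at 0.51 for Trpc4, 0.54 for Ctnna3, 0.71 for Chst3 and 0.92 for Fbn2. Its genes therefore spread over the whole distance between WT and 5XFAD.

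Other genes of WT NX 1, chosen after their values were seen, also stood apart. Spp1, a secreted phosphoprotein of the DAM program, was at 2692 CPM against 7.40 to 23.0 CPM in the other female WT libraries and 382.2 to 2583 CPM in female 5XFAD, the library labelled 5XFAD NX 4 left out here and in the next values. Lgals3 (galectin-3) was at 215 CPM, above the 34.95 to 66.3 CPM of female 5XFAD. The DAM marker Cst7, at 18.1 CPM, was far under the female 5XFAD level of 1112 CPM or more. P2ry12 was at 2967 CPM, and the neutrophil and monocyte markers at 226 CPM were the highest of female WT, which ran from 72.9 CPM. Their part in the Gpnmb value was not tested.

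**Figure D2:**
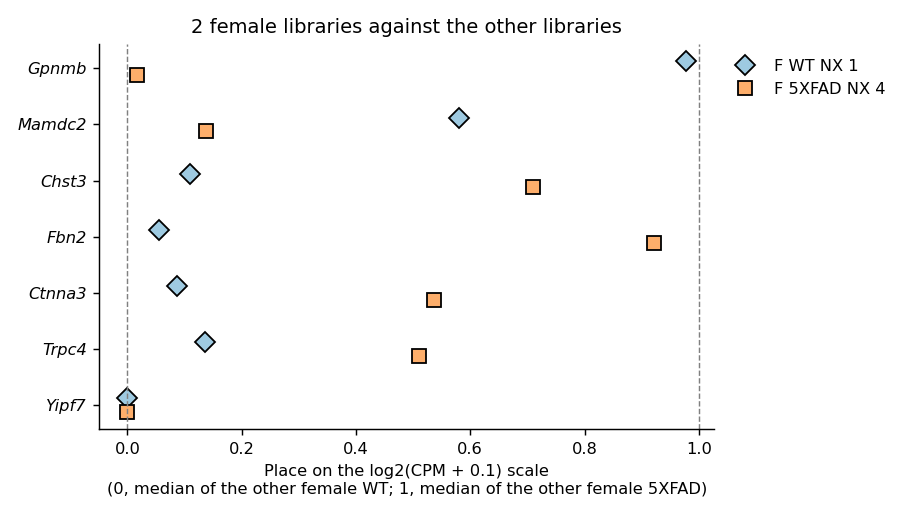
Place of F WT NX 1 (diamonds) and the library labelled F 5XFAD NX 4 (squares) between the medians of the other female WT libraries (0) and the other female 5XFAD libraries (1) on the log2(CPM + 0.1) scale, for each gene. The diamonds are near 1 only for Gpnmb (0.98), and the squares run from 0 for Yipf7 to 0.92 for Fbn2.

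Levels were compared between genes per length, as the deposited FPKM, and only within a table, because the tables use different gene lengths. In female 5XFAD CIH (n = 5) the order was Gpnmb at 300.6 ± 103 FPKM (SD), Mamdc2 at 71.6 ± 9.57, Yipf7 at 4.21 ± 1.27, Trpc4 at 2.14 ± 0.673, Ctnna3 at 2.03 ± 0.447, Chst3 at 1.66 ± 0.237 and Fbn2 at 0.509 ± 0.113 FPKM. Trpc4 and Ctnna3, and Ctnna3 and Chst3, lay within their SDs of each other. In male 5XFAD CIH (n = 5) the order was Gpnmb at 99.3 ± 46.7 FPKM, Mamdc2 at 57.5 ± 8.4, Yipf7 at 2.72 ± 1.23, Chst3 at 1.69 ± 0.221, Ctnna3 at 1.11 ± 0.217, Trpc4 at 0.741 ± 0.343 and Fbn2 at 0.356 ± 0.203 FPKM. There, only Mamdc2 and Yipf7, and Chst3 and Ctnna3, were neighbours in this order whose SDs did not overlap. Under NX the male order was the same, and in females the order was also that of CIH. Fbn2 was thus the lowest per length in every 5XFAD group, and Gpnmb and Mamdc2 stood over the other 5 genes.

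The question which the design put to these genes beyond genotype was whether CIH changed them. None of the 7 was called for CIH against NX in 5XFAD microglia of either sex (edgeR quasi-likelihood test, Benjamini-Hochberg over all genes tested), where 0% of 14578 female and 0% of 14334 male genes were called. At an unadjusted p under 0.05 in edgeR there were 470 genes in females (3.22%) and 473 in males (3.3%), and no member was among them. In females the log2 fold change was -0.08 (SE 0.98) for Gpnmb and 0.12 (SE 0.83) for Mamdc2, and without the library labelled 5XFAD NX 4 it was -0.40 (SE 0.39) and -0.20 (SE 0.21). Chst3 moved from 0.17 (SE 0.30) to -0.04 (SE 0.18), Fbn2 from 0.15 (SE 0.21) to 0.04 (SE 0.19) and Ctnna3 from 0.18 (SE 0.44) to -0.10 (SE 0.20). Trpc4 moved from 0.10 (SE 0.51) to -0.17 (SE 0.35) and Yipf7 from 0.61 (SE 0.68) to 0.28 (SE 0.35). Leaving this library out reversed the sign for Mamdc2, Chst3, Ctnna3 and Trpc4, and all adjusted p stayed at 0.816 or above.

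In male 5XFAD the log2 fold changes were 0.32 (SE 0.28) for Gpnmb, 0.17 (SE 0.13) for Mamdc2 and 0.01 (SE 0.23) for Chst3. They were 0.62 (SE 0.47) for Fbn2, 0.47 (SE 0.23) for Ctnna3, 0.49 (SE 0.33) for Trpc4 and -0.36 (SE 0.32) for Yipf7, with edgeR adjusted p of 0.994 to 0.999. Ctnna3 had the lowest unadjusted p, 0.0689. The precision differed, with an SE of 0.13 for Mamdc2 in males and of 0.98 for Gpnmb in females. Between CIH and NX, the libraries of each member overlapped in both sexes.

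**Figure D3:**
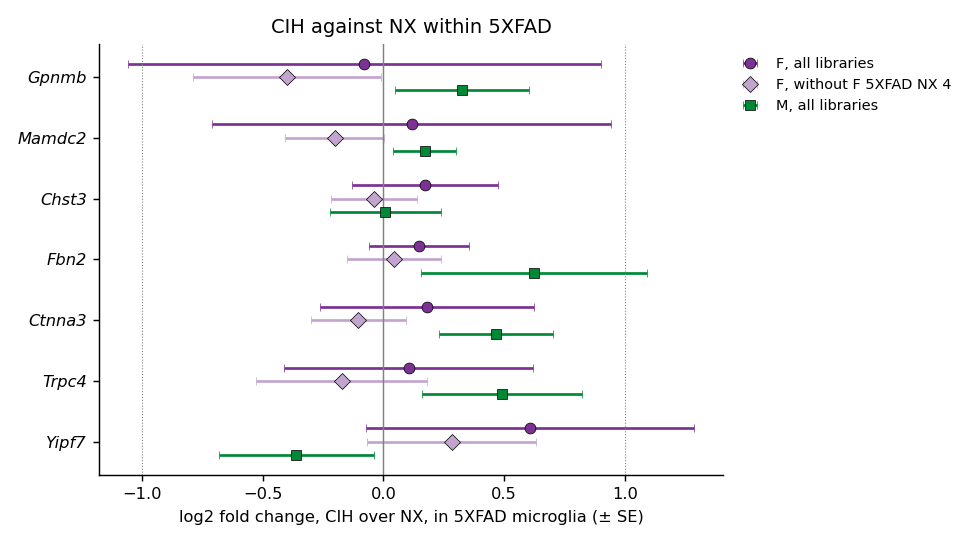
log2 fold change of CIH over NX in 5XFAD microglia with its SE, for females with all libraries, females without the library labelled F 5XFAD NX 4, and males. Dotted lines mark the limit of 1 used for a call, and the error bars of Gpnmb in females shrink from 0.98 to 0.39 when that library is left out.

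In WT, only Gpnmb passed the low-count filter (CPM above 1 in at least 3 of the libraries compared), so the other 6 members were not tested there with the filter. Between CIH and NX, 0% of 14583 female genes were called, with 565 (3.87%) at an unadjusted p under 0.05, and 2.51% of 14983 male genes. The female fold change of Gpnmb was -7.26 on the log2 scale (SE 1.97, edgeR adjusted p = 0.96) and rested on WT NX 1, without which it was 0.09 (SE 0.34, adjusted p = 1). With no filter on low counts it was called (-7.32, adjusted p = 0.00715), as were 0.0572% of 36713 genes, and without WT NX 1 that value was 0.0819 (adjusted p = 0.963). In males it was -0.54 (adjusted p = 0.582).

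The difference of the CIH effect between genotypes was not called for any member. Of the members, only Gpnmb passed the low-count filter in WT. The others passed it here through 5XFAD libraries, so their values rest on WT counts too low to measure an effect of CIH. For them the test cannot decide whether the effect differs. In females 0% of 15582 genes were called, with 589 (3.78%) at an unadjusted p under 0.05. The interaction was 7.16 (SE 2.22, edgeR unadjusted p = 0.00455, adjusted p = 0.952) for Gpnmb and 3.94 (SE 1.80, unadjusted p = 0.0419, adjusted p = 0.952) for Mamdc2, and without the 2 libraries it was -0.49 (SE 0.81) and 0.01. The other 5 members ran from -1.86 (Ctnna3) to 0.69 (Yipf7) with adjusted p of 0.952 to 0.984. Without the 2 libraries Ctnna3 was at -4.69 (SE 1.27, unadjusted p = 0.002 in edgeR) and Chst3 at -1.44 (unadjusted p = 0.0103), each with an adjusted p of 0.999, where 4.66% of all genes had an unadjusted p under 0.05. Yipf7 was at 0.75, Trpc4 at -1.47 and Fbn2 at -0.88. The Ctnna3 value compares WT NX at 0 counts in the 3 remaining libraries with 0.181 ± 0.122 CPM (SD, n = 5) in WT CIH, both near the 3-count limit. In males 0% of 15813 genes were called, with 3857 (24.4%) at an unadjusted p under 0.05, and the members ran from -1.67 for Yipf7 to 1.43 for Mamdc2, with adjusted p of 0.252 to 0.728. Without the low-count filter Mamdc2 was called, as were 2.06% of 38365 genes. Its male WT libraries held 0 to 30 counts, so this call rests on low WT counts.

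Among 5XFAD libraries, the members were positively correlated for most pairs in females, and for fewer once 2 libraries were left out. Over the 9 female 5XFAD libraries other than 5XFAD NX 4, 18 of 21 pairs of members had a positive Pearson's r of log2 CPM, with a median of 0.64 and a range of -0.29 to 0.92. When the 2 libraries farthest from the median of the first gene were left out, 12 of 21 were positive with a median of 0.08 and a range of -0.67 to 0.83, a step that also narrows the range of the first gene. Gpnmb and Yipf7 went to 0.08, Gpnmb and Mamdc2 to 0.19, Yipf7 and Trpc4 to -0.26 and Trpc4 and Chst3 to -0.16. Gpnmb and Trpc4 were the closest pair (r = 0.92, exact permutation p = 7.16e-05, adjusted over 70 relations 0.00502, Spearman's rho = 0.93 with p = 0.00075), and r was 0.83 without the 2 libraries farthest from the median. Mamdc2 and Chst3 followed (r = 0.90, exact permutation p = 0.0015, adjusted 0.0349, rho = 0.82 with p = 0.0108), but r fell to 0.58 without 2 libraries. Adjusted in the same way, no rho passed 0.05, the lowest being 0.0525 for Gpnmb and Trpc4.

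The members were also set against the mean log2 CPM of the DAM and homeostatic lists. In females 6 of 7 members had a positive r with the DAM list (median 0.82), and Mamdc2 had the highest (r = 0.93, exact permutation p = 0.000672, adjusted 0.0235, rho = 0.82 with p = 0.0108, r = 0.85 without 2 libraries). Without 2 libraries the median fell to 0.53, with Gpnmb at 0.34, Trpc4 at 0.14 and Yipf7 at 0.11. With the homeostatic list the median was -0.60, and -0.17 without 2 libraries. In the 10 male 5XFAD libraries 14 of 21 pairs were positive with a median of 0.36 and a range of -0.72 to 0.73, and without 2 libraries 12 of 21 with a median of 0.12. The highest was Gpnmb with Mamdc2 (r = 0.73, permutation p = 0.0147, adjusted 0.0898, rho = 0.71 with p = 0.0274, r = 0.65 without 2 libraries), the lowest Yipf7 with Fbn2, and none passed the correction. The male median with the DAM list was 0.07, with 4 of 7 positive. With the NX and CIH group means removed it turned to -0.22, with 3 of 7 positive, and Yipf7 with the DAM list passed the correction (r = 0.84, permutation p = 0.00084, adjusted 0.0194, rho = 0.94 with p = 0.00018, r = 0.85 without 2 libraries). In females, Gpnmb with Yipf7 (permutation p adjusted to 0.0257), and the DAM list with Yipf7 (0.0194) and with Chst3 (0.0396), then also passed. So did Yipf7 with the homeostatic list (0.0194), but none of these female relations passed by rho. The rho of Gpnmb with Trpc4 passed in that setting (adjusted 0.0473). With the means kept, 22 of the 70 relations had a p under 0.05 and 3 an adjusted p under 0.05. All points of a sex share 1 table, and with the library labelled 5XFAD NX 4 included all 21 female pairs were positive with a median of 0.90, so that a pooled r would rest on that library.

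**Figure D4:**
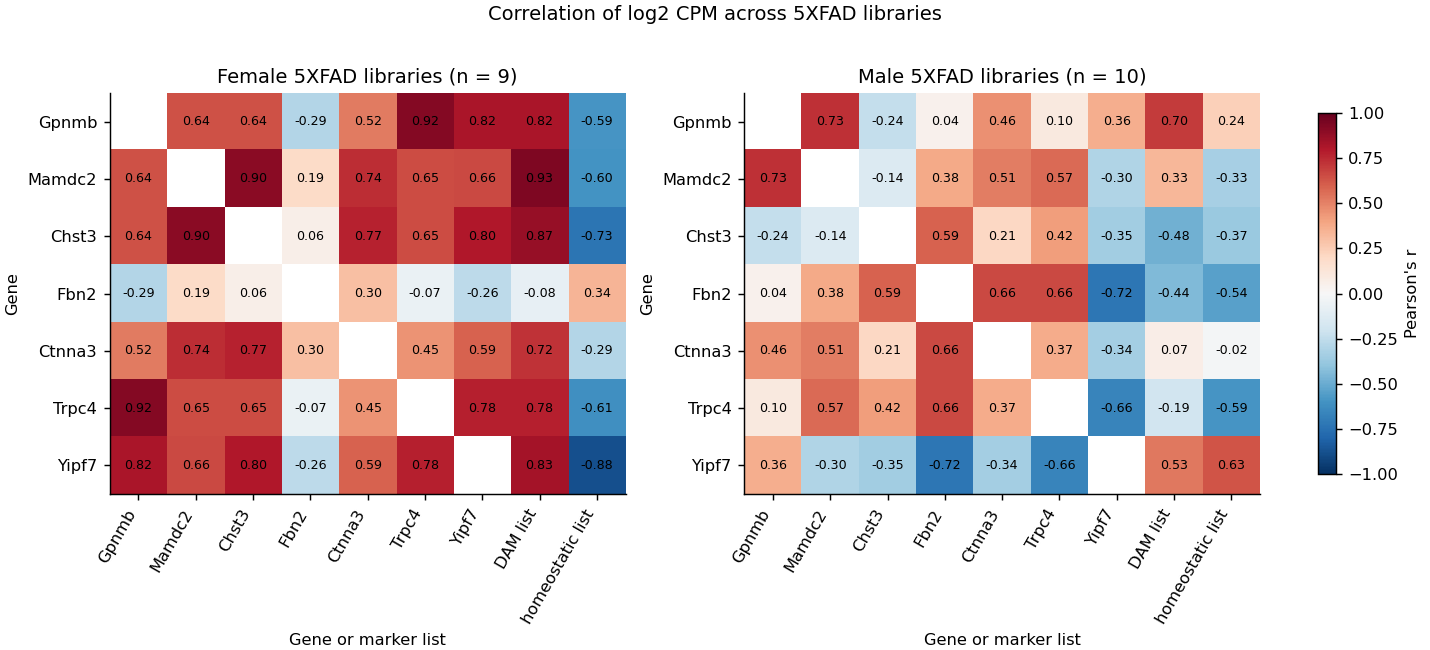
Pearson's r of log2 CPM between members, and between members and the mean of the DAM and homeostatic lists, over 9 female and 10 male 5XFAD libraries. The medians among members are 0.64 in females and 0.36 in males, and fall to 0.08 and 0.12 when the 2 libraries farthest from the median are left out of each relation.

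Close relatives of the members were called between the genotypes in 11.1% of those tested in female NX, female CIH and male NX and 11.8% in male CIH, where all genes were called in 5.99%, 13%, 8.25% and 18.7% in the order female NX, female CIH, male NX and male CIH. Without the 2 female libraries the shares in female NX were 12.5% of 16 relatives and 14.8% of all genes. Of 28 relatives, 18 were tested in female NX, female CIH and male NX, with 1 higher and 1 lower in each. The median log2 fold change of the tested relatives was 0.20 in female CIH and 0.26 in male CIH, where that of all genes was -0.02 and -0.06. Under NX it was 0.18 in females and 0.14 in males, where that of all genes was -0.02 and 0.02. Calls in female NX hung on single libraries, since over all lists, marker lists included, 45 genes were called there with all libraries, 0 without WT NX 3 and 64 without the 2 libraries. Chst2, which puts sulfate on N-acetylglucosamine, rose in all 4 genotype comparisons, by 4.21 on the log2 scale in female CIH (edgeR adjusted p = 5.55e-11), 4.36 in male NX (4.26e-09), 4.41 in male CIH (4.66e-12) and 3.70 in female NX (0.0155). Chst7, the other chondroitin 6-sulfotransferase, fell, at -1.24 in female CIH and -1.37 in male NX. Fbn1, the fibrillin of adult matrix, was at -0.24 in female CIH (adjusted p = 0.718), and Ctnna1, the common alpha-catenin, at 0.59 (adjusted p = 7.16e-05), under the fold limit. Pmel, the nearest relative of Gpnmb, was at 0.68 in female CIH (adjusted p = 0.119). In male CIH 2 of 17 tested relatives were higher and none lower, Chst2 and Yif1b (1.32), which handles early secretory traffic with the Yip proteins. Yif1b was also the only gene of the 6 functional lists called for CIH in WT, where it fell by 1.03 in males.

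Genes that act with Gpnmb in lysosomes and osteoclast-like cells rose in part. Of 14, 12 were tested in female CIH with 3 higher, 13 in male NX with 2 higher and 13 in male CIH with 4 higher, and none was lower. The shares of all genes called higher were 8.83%, 5.94% and 11.8% in these comparisons. Atp6v0d2, a subunit of the proton pump, rose by 8.20 (female CIH), 7.14 (male NX) and 6.996 (male CIH), and Mmp12, the macrophage elastase, by 1.81, 1.73 and 2.89. Cd44, a receptor for hyaluronan, rose by 1.86 in female CIH and 1.33 in male CIH. Acp5, an acid phosphatase, rose by 1.85 in male CIH alone among the calls. In female NX none of 13 was called, and without the 2 libraries 3 of 11 were higher, Atp6v0d2 (7.05), Cd44 (1.67) and Mmp12 (1.08). WT NX 1 itself held 34.2 CPM of Atp6v0d2 and 501 CPM of Mmp12. The transcription factor Mitf was at 0.57 (female CIH) and 0.75 (male NX) with adjusted p of 3.09e-05 and 0.00116, under the fold limit. The median of the list was 0.63 in female CIH and 0.57 in male CIH. Under NX it was 0.04 in females (0.58 without the 2 libraries) and 0.30 in males. The median of all genes was -0.02 in female CIH, -0.06 in male CIH, -0.02 in female NX (-0.04 without the 2 libraries) and 0.02 in male NX.

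In the chondroitin sulfate pathway around Chst3, some genes rose far and most did not pass. Of 29 genes, 24 were tested in female CIH with 4 higher and 1 lower, 25 in male NX with 5 higher and 1 lower, and 24 in male CIH with 6 higher and none lower, where 8.83%, 5.94% and 11.8% of all genes were called higher. In female NX it was 3 higher and 1 lower of 24, and without the 2 libraries 3 higher and 3 lower. Cspg4, the NG2 core protein, rose by 5.18 in female CIH, 3.88 in male NX and 5.18 in male CIH. Xylt1, which starts the sugar chain, rose by 3.59, 3.82 and 3.37 in the same order, and Chst11, which sulfates carbon 4, by 1.71, 1.6 and 1.71. The median of the list was 0.09 in female CIH and 0.11 in male CIH, and -0.05 in female NX and 0.13 in male NX.

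Lists around Fbn2 and Ctnna3 held calls in both directions, to be read against the shares of all genes called higher and lower given with the cell type markers. Of 18 microfibril genes, 12 were tested in female CIH with 2 higher and 2 lower, 12 in male NX with 2 higher and 1 lower, and 10 in male CIH with 2 higher and 2 lower. In female NX it was 2 higher and 1 lower of 12, and without the 2 libraries 2 higher and 2 lower of 10. Lox, the enzyme that cross-links collagen and elastin, rose by 5.16, 5.81 and 5.15 in female CIH, male NX and male CIH, and Efemp2 (fibulin-4) by 1.32, 1.16 and 1.71. Adamtsl2, a fibrillin-binding glycoprotein, fell, with values of -2.21, -1.70 and -2.11, and so did Fbln1 at -1.31 in female CIH and -1.09 in male CIH. Of 19 cadherin and catenin genes, 14 were tested in female CIH with 2 higher and 2 lower, 13 in male NX with 1 higher and 2 lower, 13 in male CIH with 2 higher and 2 lower, and 14 in female NX with 1 higher and 1 lower. Without the 2 libraries it was 2 higher and 2 lower of 12 in female NX. Pkp2 (plakophilin-2), a partner of alpha-T-catenin in heart junctions, rose by 4.33, 5.12 and 2.73 in female CIH, male NX and male CIH. Ctnnd2, the neural delta-catenin, fell, with values of -1.79, -1.51 and -1.57, and so did Actn1 (alpha-actinin) at -1.34, -1.502 and -1.26. Of 19 calcium entry genes around Trpc4, 13 were tested and none was called in any genotype comparison. The medians in female CIH and male CIH were -0.21 and -0.30 for the microfibril list, 0.56 and 0.40 for the cadherin list and -0.08 and 0.04 for the calcium list. In female NX and male NX they were -0.74 and -0.41, 0.42 and 0.43, and -0.04 and -0.135, with the lists in the same order.

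Most neighbours on the chromosome did not pass the test. Within 500 kb of the 7 genes lay 167 other genes of the male table, of which 60 were tested. In male NX 3 were higher and 4 lower, and in male CIH 9 were higher and 5 lower, which is 11.7% and 23.3% of those tested against 8.25% and 18.7% of all genes. Near Gpnmb, Gimap3, a GTPase of lymphocytes and myeloid cells, rose by 2.16 under NX and 2.57 under CIH, while Gimap6 (-1.57 and -1.24) and Gimap9 (-1.63 and -1.47) fell. Postn (periostin, a matrix protein) near Trpc4 rose by 1.53 and 1.44, Dna2 near Ctnna3 by 1.66 and 1.19, and Cdh23 near Chst3 fell, at -1.21 and -1.40. Gimap1 fell under NX (-1.30). Under CIH alone, calls also went to Gimap4 (1.55), Atp6v0e2 (1.33), Tmem176a (1.28), Tmem176b (1.12) and Gm43980 (-1.68) near Gpnmb, Gm6204 (2.53) near Trpc4, and Gm9493 (2.15) and Gm9938 (-1.60) near Mamdc2. Whether these differ between NX and CIH was not tested. The genes that overlap a member were under the low-count filter and were not tested.

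To place the members among genes of the same kind, all 34342 symbols found in both tables were searched for a WT mean of at most 2 CPM in each, which 22268 met. Ordered by the smaller of the female and male log2 ratios of mean CPM + 0.1 in 5XFAD to WT, 41 reached 3, 23 reached 4 and 15 reached 5. Of the members, 5 met the WT limit with all libraries, Yipf7 at place 15 (5.05), Chst3 at 23 (4.01), Ctnna3 at 31 (3.54), Trpc4 at 33 (3.37) and Fbn2 at 45 (2.84). Gpnmb and Mamdc2 missed it through WT NX 1 and came first and second without the 2 libraries, at 8.51 and 8.08. Those libraries were set aside partly on the values of these genes, so nothing is read from the 2 places. In the order without the 2 libraries Yipf7 was at place 20, Chst3 at 30, Ctnna3 at 37, Trpc4 at 41 and Fbn2 at 55.

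With all libraries, the first 10 genes of the order that are not members were Gfap (7.64), Dkk2 (7.22), Baiap2l2 (7.05), Lgi2 (6.87), Trpm1 (6.22), Tmem163 (6.20), Pianp (5.66), Dcstamp (5.60), Gm1673 (5.57) and Fabp3 (5.52). Without the 2 female libraries, Fabp5 (6.40) at place 7 and Atp6v0d2 (6.31) at place 9 also came among the first. Gfap is the intermediate filament of astrocytes and was itself on the astrocyte list. It had a mean of 170.5 CPM in female and 302 CPM in male 5XFAD, a large part of the summed level of that list there. A sum of the list without Gfap is not given, and the part of astrocyte RNA in the order was not tested. Dkk2, a secreted Wnt modulator, and Baiap2l2, a membrane-bending adaptor, are on the DAM list. Trpm1 is a cation channel of the same superfamily as Trpc4, and Dcstamp is a membrane protein of cell fusion in osteoclasts. These are descriptions of an order over 39 libraries and carry no test.

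**Figure D5:**
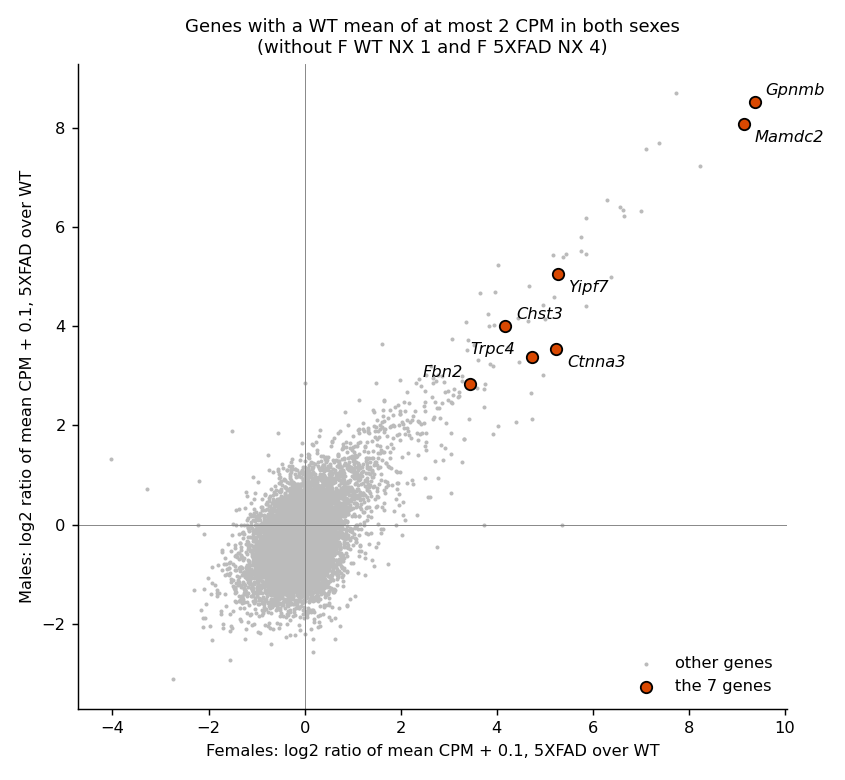
log2 ratio of mean CPM + 0.1 in 5XFAD to WT in females (x) and males (y), for 22298 genes with a WT mean of at most 2 CPM in both sexes, without F WT NX 1 and the library labelled F 5XFAD NX 4. Each point is a gene, and the 7 members are in orange, with Gpnmb and Mamdc2 at the upper right corner. The libraries left out were set aside partly on the values of Gpnmb and Mamdc2.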

How the data were processed

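Microglial RNA of 39 mice was sequenced by the authors as bulk mRNA libraries (paired-end, Illumina) and aligned to GRCm38/mm10. The submitters' processing notes name HISAT2, and its version and the counting tool are not given in the sources used here. The authors deposited 1 table of raw whole-number counts per sex, without normalization. FPKM tables were also deposited by the authors. From the values, female FPKM were scaled by the count total of each library and male FPKM by 0.794 to 1.2 times that total, within 3.1% of the TMM factor. Columns were assigned to groups and replicate numbers by the labels, and each library was taken as 1 animal, since the methods of the study call the samples independent.

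The 7 members, the gene lists and the tests were chosen with earlier results of these data known. Counts were tested in edgeR 4.0.16 (R 4.3.3) with TMM scaling and the quasi-likelihood F test, after a filter of CPM above 1 in at least 3 of the libraries compared, as pairs of groups, or over the 4 groups of a sex for the interaction. P-values were adjusted over all genes tested (Benjamini-Hochberg), and a gene was called at FDR under 0.05 and an absolute log2 fold change above 1. Fits were tested on simulated data. TMM moved the median log2 fold change of all genes by 0.15 to 0.37 against library size in the 4 genotype comparisons and by 0.17 in the male interaction. Descriptive levels and ratios use counts divided by the library total, with TMM as the alternative, and a ratio against 0 counts uses 3 counts per library. Against 1 to 3 counts it has an exact binomial interval (95%). Correlations used permutations of log2 CPM with TMM, exact for 9 libraries and 100000 resamples for 10.

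Named genes were all 7 members, up to 3 called genes of each list with the largest fold change, detected relatives, and called or overlapping neighbours within 500 kb. The first 10 other genes in the order by ratio were also named, with all libraries and without the 2 female libraries. Genes outside this rule (markers of WT NX 1 and of the library labelled 5XFAD NX 4, Mitf) were picked after their values were seen. Alternatives were DESeq2 1.42.0, edgeR's likelihood ratio test, limma 3.58.1 on log2(FPKM + 1) and log2(FPKM + 0.1), other filters and thresholds, a replicate block and leaving out each library. Those for the list counts, and leaving out both female libraries together, were added after seeing the data. Calculations outside R used Python 3.11.15, numpy 2.4.6, pandas 2.3.3 and scipy 1.17.1. Promoter sequences for Mamdc2, Yipf7 and Fbn2, and protein sequences, were not used here.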

Additional observations from a re-analysis of the deposited data

Results flagged for a closer look

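In groups of 4 or 5 libraries, 10 of 56 combinations of member and group had 1 library far from the others by Dixon's criterion at the 95% level, which by chance marks about 1 in 20 groups. In 4 of the 10 the other libraries of the group were all at 0, so that any count was marked and that chance rate does not apply. In female WT NX, replicate 1 was far above the others for Gpnmb (799 CPM, others 1.05 to 1.58), Mamdc2 (16.3 CPM, others 0.122 to 0.816) and Ctnna3 (0.116 CPM, others 0). Among male WT CIH libraries, replicate 5 was far above the others for Ctnna3 (1.59 CPM, others 0 to 0.109), Trpc4 (1.035 CPM, others 0 to 0.246) and Yipf7 (0.069 CPM, others 0). Single counts of Yipf7 set female WT NX 2 (0.061 CPM) and female WT CIH 1 (0.0602 CPM) apart from libraries at 0. Male WT NX 3 was at 0 for Ctnna3 where the others held 0.609 to 0.774 CPM. Male 5XFAD CIH 2 was the only 5XFAD library marked, at 10.2 CPM of Trpc4 (others 3.56 to 4.82 CPM). The library labelled female 5XFAD NX 4 was not marked for any member, and for Fbn2 it lay inside the range of its group.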

How the results depend on the processing

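No member was called for CIH or for the interaction under 64 of 66 other settings. The same held when any 1 library was left out (0 to 0 in each of the 6 comparisons). These counts are a limited check. A setting that only makes the FDR limit stricter cannot call a member that the main fit did not call. In WT of either sex only Gpnmb passed the low-count filter, so settings that kept this filter did not test the other members there. Without a filter on low counts, 1 member was called in female WT (Gpnmb, -7.32, edgeR adjusted p = 0.00715, and 0.0819 with WT NX 1 also left out, a setting chosen after seeing the data) and 1 in the male interaction (Mamdc2, 1.42, adjusted p = 0.022). Signs of uncalled fold changes turned as follows. For Gpnmb in female 5XFAD, library size gave 0.00362, the replicate block 0.45, and limma 1.353 with 1 FPKM added and 1.62 with 0.1 FPKM added. In the female interaction, limma gave 0.17 (Ctnna3), 0.19 (Trpc4), 0.0867 (Chst3) and 0.0232 (Fbn2) with 1 FPKM added, and 0.0213 (Ctnna3) and 0.21 (Trpc4) with 0.1 FPKM added, and Gpnmb was at -0.49 without both female libraries. Chst3 in male 5XFAD was at -0.0866 under library size. The cause was not tested.

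With 1 library left out at a time, Gpnmb ran from -7.69 to 0.0937 in female WT, -0.40 to 0.33 in female 5XFAD and -0.17 to 7.57 in the female interaction. In female 5XFAD the ranges were -0.20 to 0.30 for Mamdc2, -0.10 to 0.39 for Ctnna3, -0.17 to 0.41 for Trpc4 and -0.0387 to 0.32 for Chst3. In the female interaction Yipf7 ran from -0.77 to 2.05 and Fbn2 from -0.92 to 0.18. Chst3 ran from -0.13 to 0.17 in male 5XFAD and from -1.72 to 0.0532 in the male interaction.

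Genes of all lists called between genotypes numbered 45 in female NX, 0 at FDR under 0.01 and 0 to 61 with 1 library left out, with 6 without WT NX 4, 16 without WT NX 2, and 20, 15, 18 and 9 without 5XFAD NX 3, 2, 1 and 5. They numbered 68 in female CIH (121 with no fold limit, 66 to 71 with 1 left out), 65 in male NX (57 to 67) and 69 in male CIH (112 with no fold limit, 64 to 70). Adjusted correlations under 0.05 numbered 3, or 28 with the library labelled 5XFAD NX 4 and 8 with the NX and CIH means removed. Of the log2 ratios, Gpnmb in female NX moved from 2.06 to 9.40 without WT NX 1, and those of Yipf7 in the comparisons with 1 WT count moved to bounds of 3.91 to 4.76.

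Replicate numbers were not treated as pairs in the main fits. Libraries with the same number had deviations correlating between -0.494 and 0.349. Libraries with different numbers were not compared, so these values cannot decide whether the numbers pair samples. With the replicate block, 1 list gene was called in female NX, 68 in female CIH, 60 in male NX and 72 in male CIH, and no member was called. Depth limits the WT level of Yipf7, which held at most 1 count in a WT library.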
